A study of Homo sapiens with 8 samples.

Results

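The genes described here are 38 enzymes, transporters and stress proteins of amino acid metabolism that are known as targets of the transcription factor ATF4 or linked to it. They were listed by name, with earlier results of these data known, from 19964 human genes that have a coding transcript in the deposited counts. All 38 were found, all 38 passed the filter on low counts in mRNA-seq, and 37 passed it in both assays. NUPR1, a small stress-induced chromatin protein, had 0 and 6 ribo-seq reads on its coding sequence (CDS) in the control libraries and 1 and 5 in the arsenite libraries, too few for a test of translation. The question was whether such genes had changed in RNA or in translation after a short stress during which ATF4 itself is already made.

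Cells of HEK293T, an established line from human embryonic kidney that carries the SV40 large T antigen, received vehicle (control) or 40 µM sodium arsenite for 30 min. Each treatment was profiled by ribo-seq, which counts mRNA fragments protected by ribosomes, and by mRNA-seq of randomly fragmented mRNA from the cytoplasmic lysate. There were 2 replicates and 8 libraries, and all cells met cycloheximide during the wash at harvest. On the transcript chosen for each gene, the ribo-seq libraries held between 1023971 and 7270584 reads and the mRNA-seq libraries between 3990862 and 21704978, with replicate 1 the shallower in every case. The 7 genes listed as HEK293T markers, among them VIM and the neurofilament genes NEFL and NEFM, were detected in all 4 mRNA-seq libraries and summed to 474 to 728 cpm (counts per 1000000 counts of the library), most of it VIM, with PAX2 no higher than 3.73 and KRT8 at 6.39 to 14.7. The 7 markers of blood, liver, fibroblasts and endothelium summed to 12.7 to 14.3 cpm, most of it COL1A1 (9.84 to 12.4), and CD3E was at 0. Fewer cells of a kind and less RNA per cell cannot be told apart in such bulk samples.

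ATF4 is a transcription factor whose mRNA carries upstream open reading frames, which let its CDS be translated when phosphorylation of eIF2 lowers translation at large. It pairs with C/EBP family proteins on a short composite element, the C/EBP-ATF response element, and is known for raising genes that make amino acids, import them and charge tRNAs with them. Arsenite activates the eIF2 kinase EIF2AK1, also called HRI.

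The core of that element was searched in the promoters of the members because it is the sequence through which ATF4 is known to act. The pattern was TGATGNAA on either strand, in RefSeq promoters of 300 bases (250 before to 50 after the gene's start, build GRCh38.p14). A promoter was found for 30 of the 38 members. PSPH, SHMT2, PYCR1, PYCRL, GPT2, BCAT2, SLC7A11 and NUPR1 were not matched. The pattern was present in 8 of the 30 (26.7%), against 3.62% of all 35116 promoters in the table and 1.59% of the 10353 promoters of genes tested for RNA. Members were listed for their link to ATF4, so the share describes the list and was not tested. The matches are printed in the direction of the gene, with the 8 bases of the pattern in capitals. Capitals that begin with TGATG lie on the gene's own strand, and capitals that end with CATCA lie on the other.
MTHFD1L, chr6:150866346-150866375, + strand: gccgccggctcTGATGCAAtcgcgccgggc
ASNS, chr7:97872458-97872487, - strand: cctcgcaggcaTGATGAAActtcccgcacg
GOT1, chr10:99430804-99430833, - strand: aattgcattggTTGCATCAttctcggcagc
BCAT1, chr12:24949131-24949160, - strand: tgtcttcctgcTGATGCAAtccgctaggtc
SLC3A2, chr11:62881725-62881748, + strand: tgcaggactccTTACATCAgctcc
SLC7A1, chr13:29595663-29595692, - strand: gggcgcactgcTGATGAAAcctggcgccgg
SLC38A1, chr12:46266502-46266531, - strand: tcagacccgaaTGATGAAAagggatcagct
CHAC1, chr15:40953251-40953280, + strand: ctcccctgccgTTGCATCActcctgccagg
The matches were centred at -205 (CHAC1), -194 (GOT1), -125 (MTHFD1L), -64 (ASNS), -44 (BCAT1), 0 (SLC38A1), 11 (SLC7A1) and 41 (SLC3A2) relative to the annotated start, where negative positions lie before it. A match describes letters and not binding.

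ATF4 was translated more in arsenite while its mRNA level was not called. Its mRNA-seq level was 927 and 1287 cpm in control (here and below, library sizes for cpm are scaled by TMM factors), with replicate 1 named first here and below, and 909 and 1181 in arsenite. Its CDS ribo-seq level was 314 and 197 cpm in control and 971 and 1287 in arsenite, so that both arsenite libraries lay far above both controls. The log2 change in RNA was -0.08, while ribosome occupancy, the CDS ribo-seq level, rose by 2.18 ± 0.222 (SE, n = 2 replicates, edgeR adjusted p = 3.0e-06). Translation efficiency (TE), the change in ribo-seq beyond that in mRNA-seq, rose by 2.28 ± 0.286 (edgeR adjusted p = 0.00974), by 1.66 in replicate 1 and 2.84 in replicate 2. All changes given are relative to the bulk of mRNAs in the same assay, so a decrease of translation shared by most mRNAs is not part of them.

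At the RNA level 11 of the 38 members rose and 0 fell, all 11 by less than 1.5-fold in the estimate. Across all 12576 genes tested, 5.7% were called in either direction, 4.01% higher and 1.69% lower, against 28.9% of the members. The shares are not like for like, because small changes were easier to call in the members. The median SE was 0.055 in the members and 0.083 over all genes. With the count minimum raised to 50, 7.11% of all genes were called, beside 11 of 37 members higher and 1 lower. The calls are from edgeR's quasi-likelihood test with the replicate as a block and a Benjamini-Hochberg adjusted p under 0.05. Downward, 1 member (PYCR1) had an unadjusted p under 0.05, and DESeq2 called 0. The median log2 change of the members was 0.09, against -0.0017 over all genes, and 29 of 38 estimates were above 0. Changes of the same sign in both replicates were seen in 27 of 38 members, of which 23 were positive. Over all 12576 genes they were seen in 7583, of which 3905 were positive. The 11 were spread over 8 of the 9 roles described below, with none in transsulfuration.

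**Figure D1:**
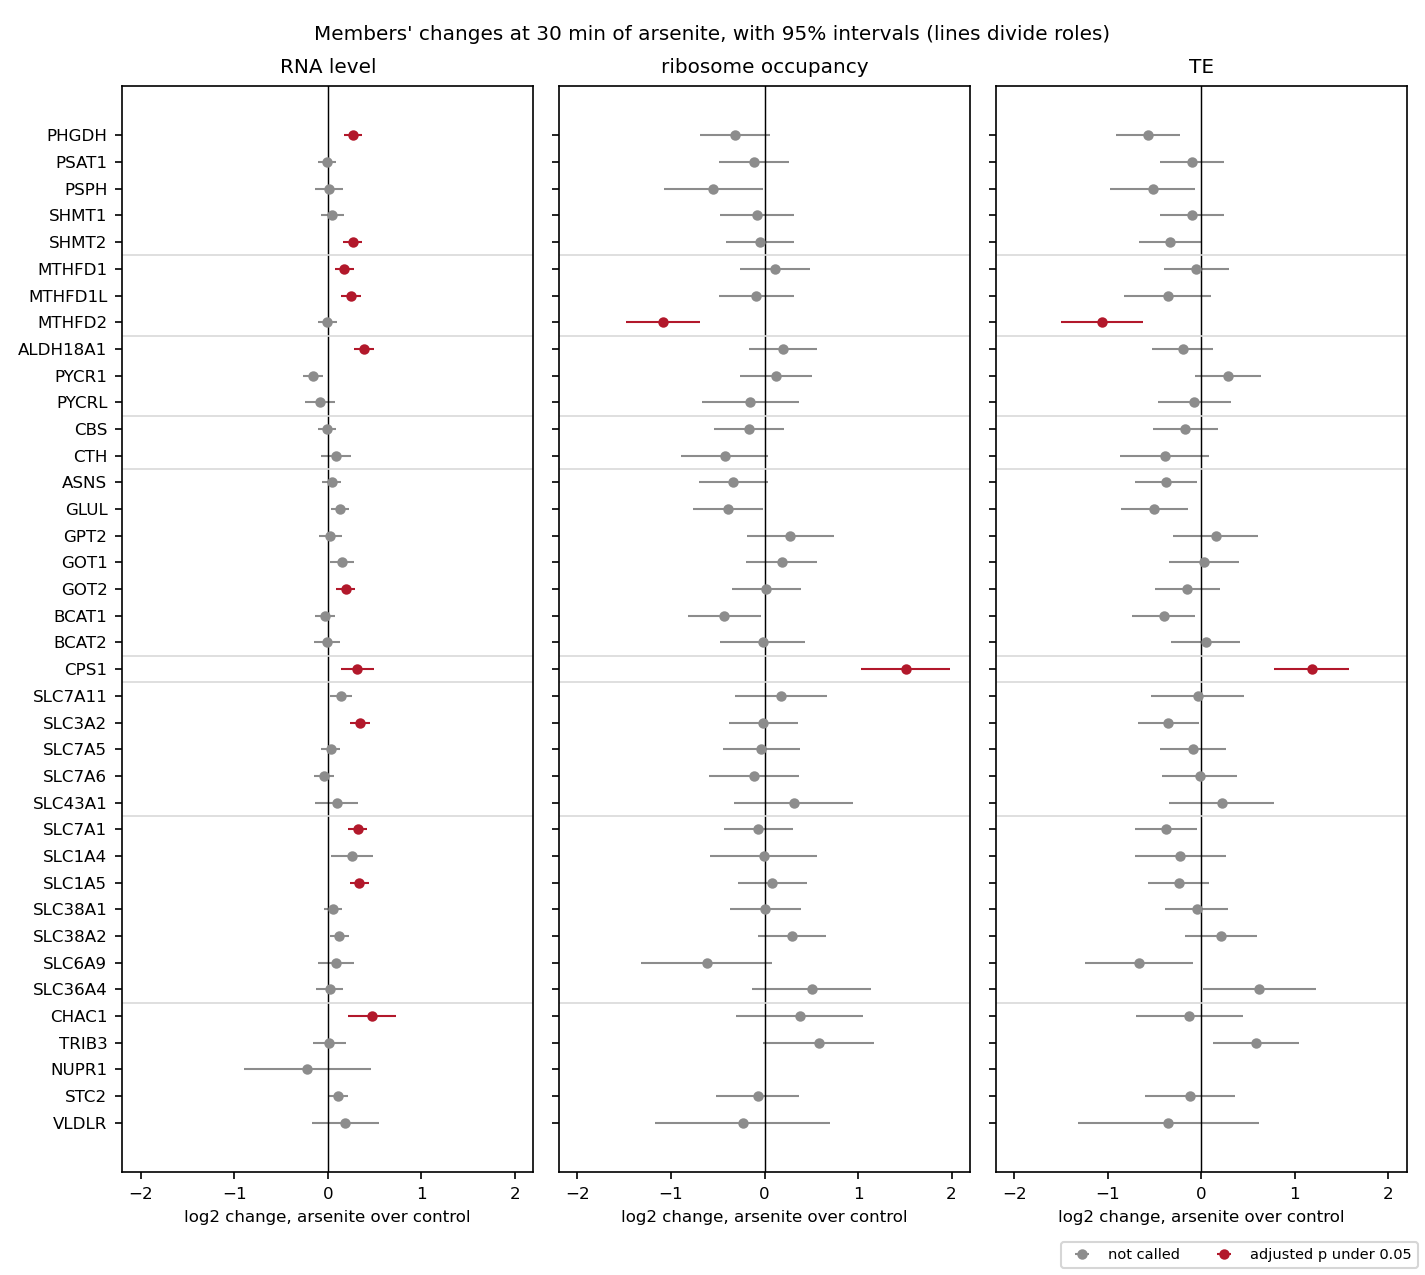
Log2 change of each member in RNA level, ribosome occupancy and TE (x axis, arsenite over control) with 95% intervals, genes on the y axis in the order of their roles. Red points passed an adjusted p of 0.05. The 11 red points in the RNA panel all lie right of 0, and CPS1 and MTHFD2 are the called members in the other panels, where NUPR1 was not tested.

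In serine and glycine synthesis, 2 of 5 genes rose in RNA. PHGDH, the first and committed enzyme of serine synthesis from glycolysis, had 552 and 358 cpm in control and 653 and 439 after treatment. The replicates lay further apart than the treatments, but arsenite was higher within each, and the log2 change was 0.27 ± 0.0495 (SE, n = 2, edgeR adjusted p = 4.83e-06). SHMT2, the mitochondrial enzyme that turns serine into glycine, had 216 and 238 cpm in control and 281 and 275 in arsenite. Here the groups did not overlap, and the log2 change was 0.27 ± 0.0524 (edgeR adjusted p = 3.72e-05). The other enzymes of the path were near 0. PSAT1, which follows PHGDH in the pathway, had a log2 change of -0.01, with 378 and 546 cpm in control and 374 and 544 in arsenite. PSPH, which completes serine, was at 0.01, and the cytosolic SHMT1 at 0.05.

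Of the folate enzymes that carry the one-carbon units released from serine, 2 of 3 rose. MTHFD1L, which makes formate in mitochondria, had 167 and 120 cpm in control and 197 and 143 in arsenite, a log2 change of 0.25 ± 0.0550 (edgeR adjusted p = 0.000480). MTHFD1, the trifunctional cytosolic enzyme, had 433 and 296 cpm in control and 480 and 339 in arsenite, a log2 change of 0.18 ± 0.0502 (edgeR adjusted p = 0.0123). Both rose in each replicate, although the unpaired ranges of the treatments overlapped. MTHFD2, the mitochondrial dehydrogenase and a known ATF4 target, was level in RNA, with 315 and 468 cpm in control, 316 and 466 in arsenite and a log2 change of -0.0028 ± 0.0513.

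In proline synthesis the first and last steps differed. ALDH18A1, which makes the precursor pyrroline-5-carboxylate from glutamate, had 196 and 168 cpm in control and 269 and 215 in arsenite. Both arsenite libraries lay above both controls, and the log2 change was 0.39 ± 0.0528 (edgeR adjusted p = 8.19e-11). PYCR1, which makes proline from it, was at -0.16 (edgeR adjusted p = 0.0560) and PYCRL, a related reductase, at -0.08, and neither passed the test. Both transsulfuration genes, which make cysteine from homocysteine, stayed near 0 in RNA. CBS, the first of them, had 345 and 382 cpm in control and 355 and 372 in arsenite, a log2 change of -0.01, and CTH was at 0.09.

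Among 7 genes for asparagine, glutamine and the aminotransferases, GOT2 alone was called. GOT2, the mitochondrial aspartate aminotransferase, had 288 and 220 cpm in control and 312 and 259 in arsenite, a log2 change of 0.19 ± 0.0517 (edgeR adjusted p = 0.00822), with 0.12 and 0.23 in the replicates. GLUL, the glutamine synthetase, had 453 and 354 cpm in control and 468 and 405 in arsenite, a log2 change of 0.13 that did not pass (edgeR adjusted p = 0.0983). ASNS, the asparagine synthetase and a textbook ATF4 target, had 193 and 205 cpm in control and 206 and 208 in arsenite. Its arsenite libraries lay just above the controls, and the log2 change of 0.04 did not pass (95% interval -0.06 to 0.15). GOT1 (0.16), GPT2 (0.03), BCAT1 (-0.03) and BCAT2 (-0.01), which move amino groups between amino and keto acids, did not pass either. CPS1, the mitochondrial enzyme that makes carbamoyl phosphate at the entry of the urea cycle, was a low transcript with 33.9 and 23.5 cpm in control and 46.6 and 28.2 in arsenite. It rose by a log2 change of 0.32 ± 0.0902 (edgeR adjusted p = 0.0137).

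Of the 12 amino acid transporter genes, 3 rose. SLC3A2, the heavy chain that brings several amino acid exchangers to the cell surface, had 188 and 156 cpm in control and 239 and 199 in arsenite. The treatments did not overlap, and the log2 change of 0.35 ± 0.0530 was nearly equal in the replicates, 0.34 and 0.35 (edgeR adjusted p = 1.95e-08). SLC1A5, a glutamine importer, had 243 and 189 cpm in control and 298 and 242 in arsenite, a log2 change of 0.34 ± 0.0522 (edgeR adjusted p = 3.19e-08). SLC7A1, the cationic amino acid transporter CAT1, had 259 and 190 cpm in control and 317 and 240 in arsenite, a log2 change of 0.32 ± 0.0520 (edgeR adjusted p = 1.24e-07). Each of these rose in both replicates. The light chains that pair with SLC3A2 did not pass. SLC7A11, the cystine importer, was at 0.14 with non-overlapping libraries, SLC7A5 at 0.03 and SLC7A6 at -0.04. SLC43A1 (0.09), SLC1A4 (0.26), SLC38A1 (0.05), SLC38A2 (0.12), SLC6A9 (0.09) and SLC36A4 (0.02), which carry neutral amino acids, glycine or proline, did not pass.

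CHAC1, which degrades glutathione and is known as a target downstream of ATF4, had the highest estimate of the members and few reads. It had 21 and 218 mRNA-seq reads in control and 32 and 333 in arsenite, which is 5.40 and 10.9 cpm against 8.28 and 14.9. The log2 change was 0.47 ± 0.130 (edgeR adjusted p = 0.00903), with 0.61 and 0.46 in the replicates. TRIB3, a pseudokinase that feeds back on ATF4, was at 0.02, with 25.2 and 30.1 cpm in control and 24.1 and 30.9 in arsenite. STC2, a secreted glycoprotein, had 139 and 185 cpm in control and 158 and 196 in arsenite, a log2 change of 0.11 that did not pass (edgeR adjusted p = 0.261). The lipoprotein receptor VLDLR was at 0.19 and NUPR1 at -0.22, both with wide intervals.

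**Figure D2:**
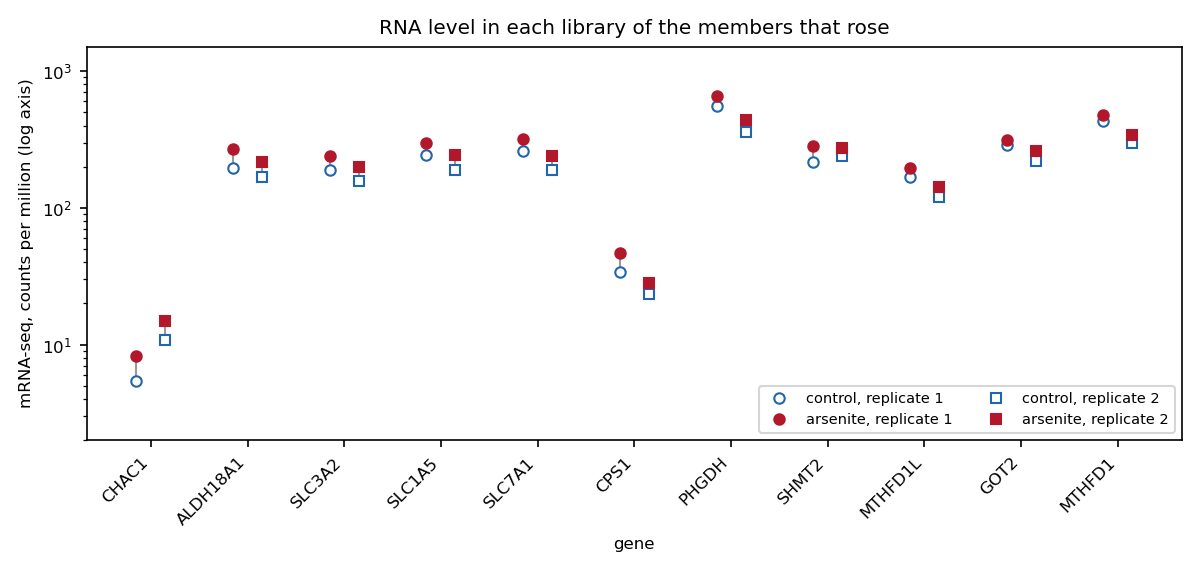
mRNA-seq level in cpm (y axis, log scale) of the 11 members that rose (x axis, by falling log2 change), for each library. Lines join control (open) and arsenite (filled) of a replicate. Arsenite is above control in every pair, while the treatments overlap across replicates for all but ALDH18A1, SHMT2 and SLC3A2.

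The RNA changes were small in the estimate. Their intervals rest on a spread shared fully across genes, so a gene whose replicates disagree is not given a wider one. SLC38A2 was at -0.09 and 0.26 in the replicates, both outside its interval of 0.02 to 0.22. The bounds that follow hold only under that shared spread. The 95% interval excluded a 1.5-fold rise for 37 of 38 members, with CHAC1 the exception (upper bound 0.73), and lay within 1.5-fold in both directions for 36. In unpaired values 5 members, ALDH18A1, ASNS, SHMT2, SLC3A2 and SLC7A11, had no overlap between treatments, and all 5 were higher in arsenite. In occupancy 5 of 37 members had no overlap, of which 1 was higher in arsenite. The share of all genes without overlap was not counted in either assay. These counts are therefore not set against a background and are not read as a result about the members. Of the members with the promoter pattern, 4 of 8 rose (MTHFD1L, SLC3A2, SLC7A1 and CHAC1, median log2 change of the 8 of 0.20), as did 6 of 22 without it (median 0.10) and 1 of 8 with no promoter in the table. The number of calls depended on the test. DESeq2 called 5 of 38 higher (PHGDH, ALDH18A1, SLC3A2, SLC7A1 and SLC1A5) beside 0.684% of all 12576 genes. It gave no adjusted p to 13 of the 38 members and to 9265 of all genes, so these 2 shares are not like for like. Counts on the CDS alone gave 6 of 37 beside 1.96%. PHGDH, ALDH18A1, SLC3A2 and SLC1A5 were called both by DESeq2 and on the CDS alone. In the edgeR fit of RNA the spread was shared fully across genes, so a gene that varies more than others of its level is not set apart.

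In ribosome occupancy 1 of 37 members was called higher and 1 lower. Over all 10290 genes tested 3.08% were called, 1.58% higher and 1.5% lower, and the members' share of 5.41% rests on those 2 genes. The median log2 change was -0.03 against -0.0031 over all genes, and 22 of 37 were below 0. The intervals were wider than for RNA. They excluded a 1.5-fold rise for 28 of 37 members and lay within 1.5-fold in both directions for 18.

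CPS1 was the member called higher. Its CDS held 49 and 144 ribo-seq reads in control and 79 and 169 in arsenite, from arsenite libraries of smaller size, which is 28.3 and 18.7 cpm against 84.1 and 51.8. Both arsenite libraries lay above both controls. Relative to the bulk of mRNAs, occupancy rose by 1.51 ± 0.232 on the log2 scale, or 2.85-fold (SE, n = 2, edgeR adjusted p = 0.000550). It rose by 1.57 and 1.46 in the replicates. This was more than its rise in RNA. TE rose by 1.18 ± 0.179 (95% interval 0.78 to 1.58, edgeR adjusted p = 0.0215), with 1.12 and 1.21 in the replicates.

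MTHFD2 was the member called lower. It had 549 and 2451 CDS ribo-seq reads in control and 112 and 588 in arsenite, which is 317 and 319 cpm against 119 and 180. The controls were close to each other and both arsenite libraries lay well below them. Relative to the bulk of mRNAs, occupancy fell by 1.09 ± 0.192 on the log2 scale, to 0.471 of control (edgeR adjusted p = 0.00206). It fell by more in replicate 1 (-1.41) than in replicate 2 (-0.82). With its mRNA level, TE fell by 1.06 ± 0.196 (95% interval -1.49 to -0.62, edgeR adjusted p = 0.0346). Of the enzymes around it, MTHFD1 was at -0.06 in TE and MTHFD1L at -0.36, and neither passed.

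**Figure D3:**
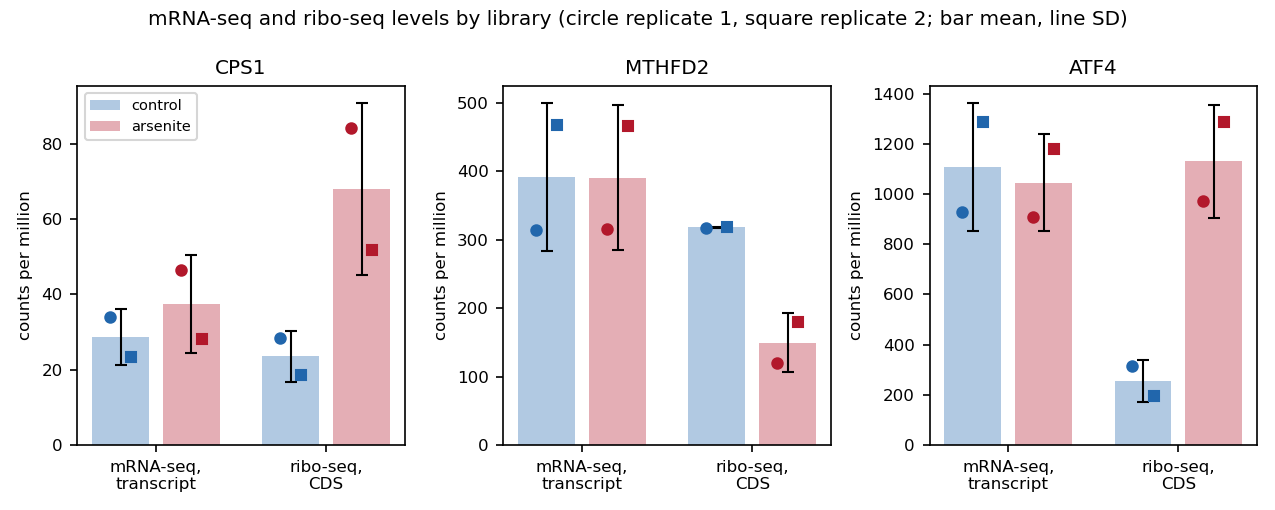
mRNA-seq and ribo-seq levels (y axis, cpm from 0) of CPS1, MTHFD2 and ATF4 in control (blue) and arsenite (red), with circles for replicate 1, squares for replicate 2, bars for the mean and lines for the SD. Ribo-seq of CPS1 and ATF4 is higher in both arsenite libraries and that of MTHFD2 lower, while their mRNA-seq levels overlap between treatments.

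TE of the members was called for the same genes, CPS1 higher and MTHFD2 lower, 2 of 37. Over all 10272 genes tested 2.17% were called, 1.05% higher and 1.12% lower. The median of the members was -0.13, against -0.0128 over all genes, and 28 of 37 estimates were below 0. The estimates within the replicates had medians of -0.21 and -0.19. After MTHFD2, PHGDH came closest to a call downward. Its ribo-seq level was 1025 and 1391 cpm in control and 757 and 1219 in arsenite, which with its rise in RNA gave a TE change of -0.57 ± 0.153 (edgeR adjusted p = 0.0771). GLUL, with 849 and 570 cpm in control and 591 and 475 in arsenite, was at -0.50 (edgeR adjusted p = 0.116). In the other direction TRIB3 was at 0.58 in each replicate, from 12.7 and 19.1 cpm to 18.1 and 29.1, and did not pass (edgeR adjusted p = 0.146). DESeq2 called MTHFD2 and gave CPS1 no adjusted p, and with mRNA-seq counts on the CDS CPS1 was called and MTHFD2 was not.

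**Figure D4:**
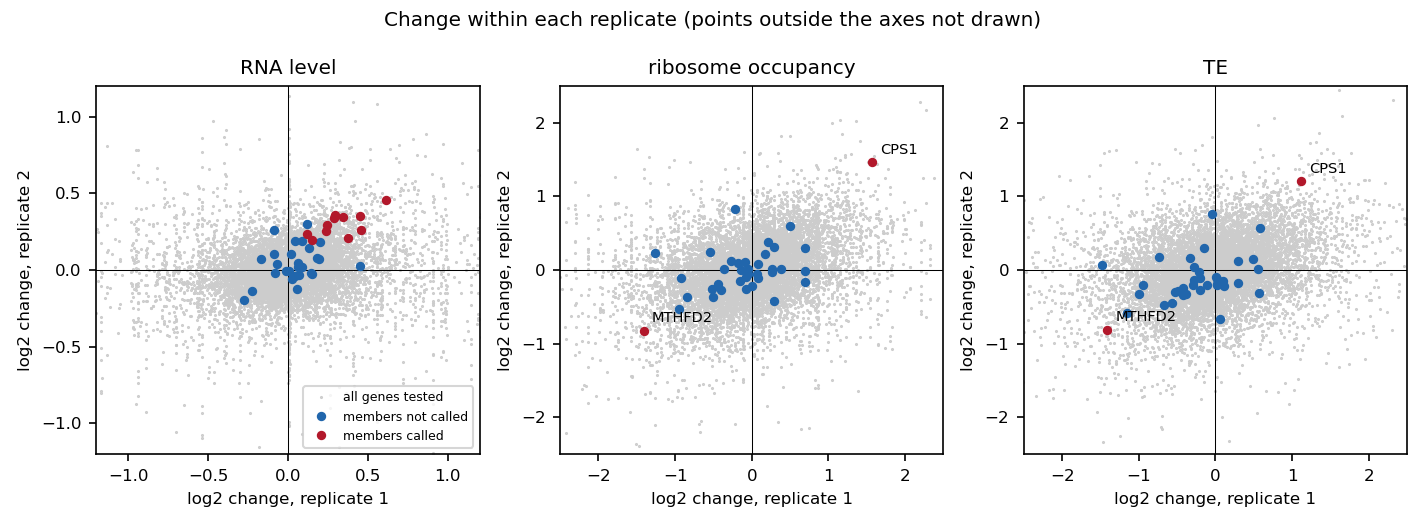
Log2 change (arsenite over control) in replicate 1 (x axis) against replicate 2 (y axis) for RNA level, ribosome occupancy and TE. Grey points are all genes tested, blue points members not called and red points members called. The RNA calls all lie in the upper right quadrant, CPS1 and MTHFD2 lie at opposite ends of the other panels, and most members sit inside the grey cloud.

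For the 11 members whose RNA rose, the median occupancy change was near 0 once CPS1 was left out, while single genes differed. CHAC1 was at 0.38 in occupancy and 0.47 in RNA, and PHGDH at -0.31 and 0.27. Without CPS1 the 10 others had a median RNA change of 0.30 and a median occupancy change of 0.0028, from -0.31 (PHGDH) to 0.38 (CHAC1), with 5 above 0 and 5 below and none called. Over all 504 genes with higher RNA, the median RNA change was 0.25 and the median occupancy change 0.10 in the 498 that were tested. SLC3A2 had 323 and 429 ribo-seq cpm in control and 313 and 433 in arsenite, an occupancy change of -0.01 ± 0.179. SLC1A5 had 270 and 460 cpm in control and 287 and 486 in arsenite, a change of 0.08 ± 0.179. ALDH18A1 had 367 and 305 cpm in control and 415 and 353 in arsenite, a change of 0.20 ± 0.178, while MTHFD1 had 1098 and 908 cpm in control and 1319 and 890 in arsenite, a change of 0.12 ± 0.182. In all of these the treatments overlapped. The 95% interval of occupancy held the RNA change for 8 of the 10, and for these 8 a rise equal to that in RNA could not be told from no rise at this depth. The exceptions were PHGDH (-0.69 to 0.06) and SLC7A1 (-0.43 to 0.30), whose intervals lay below their RNA changes. TE of all 10 was below 0, but mRNA-seq reads enter both RNA and TE, so this is not a separate measure.

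The remaining members were not called in occupancy or TE. Within the transsulfuration pair, CBS had 280 and 536 ribo-seq cpm in control and 266 and 450 in arsenite, with an occupancy change of -0.17, and CTH was at -0.43. STC2 had 87.2 and 115 cpm in control and 59.6 and 136 in arsenite, with replicates that moved in opposite directions. ASNS had 360 and 363 cpm in control and 272 and 301 in arsenite. Its libraries did not overlap, and the change of -0.33 did not pass (edgeR adjusted p = 0.339). Among transporters, occupancy ranged from -0.62 (SLC6A9) to 0.51 (SLC36A4), where the replicates went in opposite directions for SLC36A4 (-0.22 and 0.83).

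Reads in 5′ leaders, where upstream open reading frames lie, were tested against CDS reads for the 7 members with a mean of at least 10 leader counts. None of the 7 was called by edgeR, against 0.461% of the 651 genes tested. At an unadjusted p under 0.05 there were 2 of the 7, CBS and STC2, and 152 of the 651 genes. The median log2 shift toward the leader was 1.10 in the members and 0.78 over all genes. For CBS the leader held 0.206% and 0.603% of leader and CDS reads in control and 0% and 2.65% in arsenite, with 1 and 0 leader reads behind the replicate 1 values. For STC2 the shares were 0.658% and 1.99% in control and 3.45% and 4.51% in arsenite, from 1 to 21 leader reads. Without replicate 2 the median of the 7 members was -0.16, so the positive median rests on replicate 2, where the leader share of all members' ribo-seq reads went from 0.619% to 1.41% with arsenite. In replicate 1 it went from 0.627% to 0.560%. PSPH had the highest leader shares of the 7, 12.6% and 6.67% in control and 10.7% and 20.2% in arsenite, with 3 to 21 leader reads and a shift of 1.13 that did not pass (edgeR adjusted p = 0.297). For ATF4 the shares were 4.06% and 14.6% in control and 2.77% and 7.82% in arsenite, a shift of -0.83 that did not pass (edgeR adjusted p = 0.344).

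In control cells most members lay above the median mRNA in TE. TE in control was taken as the log2 ratio of ribo-seq to mRNA-seq cpm, both on the CDS, so that the length of the CDS cancels. The median of the 37 members was 0.58, against -0.27 over 10272 genes, and 30 of 37 lay above that value. The values describe levels and were not tested. BCAT1 was highest at 1.84 ± 0.0181 (SD, n = 2), at the percentile 99.4 of all genes, followed by SLC7A1 (1.22 ± 0.695) and GOT2 (1.21 ± 0.316), which do not differ beyond their spread. SLC36A4 was lowest at -1.84 ± 0.295, and CPS1, the member that rose most in TE, was next lowest at -0.68 ± 0.0258. MTHFD2, the member that fell, was at 0.16 ± 0.439, below the members' median. ATF4 was far below, at -2.42 ± 0.932 and percentile 2.33. Control reads enter both TE in control and the TE change, so the 2 are not separate measures.

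**Figure D5:**
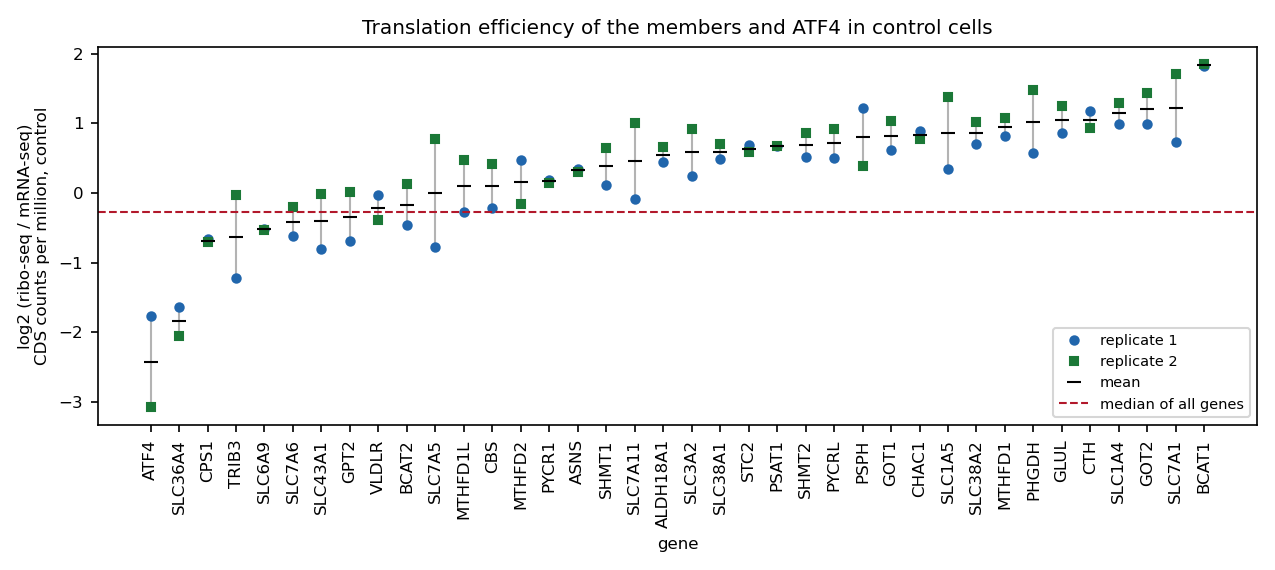
TE in control cells, as log2 of the ratio of ribo-seq to mRNA-seq cpm on the CDS (y axis), for 37 members and ATF4 (x axis, by rising mean). Points are replicates, dashes their mean and the dashed line the median of all genes, -0.27. ATF4 and SLC36A4 lie lowest and 30 members lie above the line.

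Other genes of the same pathways were listed to set the members in context. Of 66 tested other amino acid genes, 9 were called in RNA, all higher (13.6%), with a median log2 change of 0.02. The steepest were AASS, which starts lysine breakdown, at 0.76 ± 0.0781 (edgeR adjusted p = 2.74e-19), and GLDC of the glycine cleavage system at 0.70 ± 0.0783 (edgeR adjusted p = 2.13e-16), followed by PC (0.36), BCKDHA (0.28) and SLC1A3 (0.24). PC and BCKDHA rested mostly on replicate 2, with 0.06 and 0.0093 in replicate 1 against 0.43 and 0.35 in replicate 2, and SLC1A3 was at 0.12 and 0.27. AASS and GLDC also rose in occupancy, by 1.67 (1.05 in replicate 1 and 1.99 in replicate 2) and by 1.28. SLC6A15, a neutral amino acid transporter, fell in occupancy (-0.78), and the mitochondrial carrier SLC25A13 fell in TE (-0.68). Among 62 such genes tested in ribo-seq these were all the calls.

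Of 47 other genes linked to ATF4 or to eIF2 phosphorylation, 8 were called in RNA, all higher (17.0%), with a median log2 change of 0.06. They were the stress transcription factors DDIT3 (0.56 ± 0.127, edgeR adjusted p = 0.000731) and ATF3 (0.38), DDIT4 (0.30), which restrains mTOR, and the aminoacyl-tRNA synthetases MARS (0.30), AARS (0.26), WARS, GARS and TARS. DDIT4 rested mostly on replicate 2, with 0.05 in replicate 1 and 0.38 in replicate 2, and ATF3 was at 0.22 and 0.41. TE was called for 7 of 42. It rose for PPP1R15A (2.94 ± 0.288, edgeR adjusted p = 0.00413), a subunit of the eIF2 phosphatase, for ATF5 (2.74), for ATF4, for PPP1R15B (1.29) and for XBP1 (1.26), and fell for IARS (-0.77) and XPOT (-0.76), an isoleucyl-tRNA synthetase and the tRNA exporter. Occupancy was called higher for 6 of 42 and lower for 2. Beside the genes with higher TE, it was called for DDIT3, at 2.14 ± 0.498 (edgeR adjusted p = 0.0205), with 2.71 and 1.68 in the replicates. That call rests on 4 and 11 CDS reads in control and 15 and 16 in arsenite. DDIT3 reached the minimum mean of 10 counts only through its arsenite libraries, so its size is uncertain. These lists were described by counts, and no difference between them and the members was tested.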

How the data were processed

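The deposited values are raw counts that the authors made per RefSeq transcript of HEK293T ribo-seq and mRNA-seq, split by leader, CDS and 3′ UTR. Adapters were removed with cutadapt and reads aligned with Bowtie 1.0.0 (submitters' processing notes), reads of several genes were discarded, and ribo-seq reads were placed at the A-site. One coding transcript per gene was kept, chosen by its control ribo-seq reads on the CDS (most over both libraries), since transcript lengths were not used here. Genes averaging 10 or more counts in each assay were tested with edgeR 4.0.16 (R 4.3.3), quasi-likelihood, TMM and Benjamini-Hochberg adjustment. RNA used whole-transcript mRNA-seq, occupancy CDS ribo-seq, and TE the interaction of assay and treatment. SE is the log2 change over the root of F. Spike-ins were not used here. The replicate was a block, since the methods give each replicate its own adapter, sequencing and scaling. Libraries of a replicate deviated together (r = 0.775 over 12576 genes in mRNA-seq and 0.699 over 10290 in ribo-seq, across genes). Replicate values used a prior count of 0.5. The methods call the replicates independent biological ones. The p-values rest on how the treatment change differed between these 2, a spread shared across genes, fully so in the RNA fit. Members, roles and both other lists were chosen with earlier results of these data known. Per-library values were given for called members, ATF4 and the member with most control ribo-seq reads in each role, and up to 5 called genes per other list and comparison. ASNS, PSAT1, TRIB3, SLC7A11 and others were added for context after their values were seen. Tests were checked on simulated counts. Alternatives were DESeq2 1.42.0, upper-quartile scaling, other count minimums, no block, other transcripts or regions, and leaving out each replicate.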

Additional observations from a re-analysis of the deposited data

Results flagged for a closer look

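Reads in 3′ UTRs, which no comparison above uses, were more frequent among the members' ribo-seq reads in arsenite in replicate 2. They made up 0.359% of the members' reads there (95% Wilson interval 0.297 to 0.435, 104 of 28954 reads), against 0.0867% in the control library (0.0676 to 0.111, 62 of 71520). In replicate 1 the share was 0.0933% in arsenite and 0.0613% in control, from 7 and 9 reads, a difference within counting error. Over all genes the 3′ UTR share went from 0.102% to 0.200% in replicate 1 and from 0.204% to 0.754% in replicate 2, so the members' shares were below those of all genes in every library. The intervals cover counting error only.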

How the results depend on the processing

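Calls rested on pairing libraries by replicate. With no replicate block, 0 of 38 members were called in RNA, 0 of 37 in occupancy and 0 in TE, as over all genes, and with a replicate block shared by both assays 0 members were called in TE. At an unadjusted p under 0.05 the unblocked edgeR fits held 0, 2 and 0 members, and the shared block 2. With DESeq2 the calls were 5 in RNA and, in TE, 0 higher and 1 lower, and CDS-only mRNA-seq reads gave 6 in RNA and 0 lower in TE. PYCR1 made 1 member lower in RNA under upper-quartile scaling and with a mean of at least 50 counts. The median log2 RNA change was 0.10 with DESeq2 and 0.0770 with upper-quartile scaling. The median TE change was -0.15 with a mean of at least 1 count, -0.0942 with at least 50, and -0.16 with whole-transcript ribo-seq reads. The median TE in control was 0.14 with mRNA-seq reads over the whole transcript, where that of all genes was -0.45. Without replicate 1 or replicate 2, medians ranged from 0.092 to 0.104 for RNA, -0.07 to -0.01 for occupancy, -0.21 to -0.19 for TE, -0.16 to 1.10 for the leader shift, and 0.45 to 0.67 for TE in control. No called member changed direction under any alternative. A fit without 1 replicate has no residual degrees of freedom and gives values with no test. With 2 replicates, the shallower with 7502 to 14683 ribo-seq reads on all members, the 95% intervals of TE had a median half-width of 0.37 on the log2 scale. They excluded a 1.5-fold rise for 29 of 37 members and lay within 1.5-fold in both directions for 14. Before adjustment for the number of genes, 9 of these intervals lay wholly below 0 and 3 wholly above.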
